A study of Mus musculus with 8 samples.

Results

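S1pr1, S1pr4, Ccr7, Klf2 and Klf3 are genes of T cell traffic between blood, lymph node and tissue. These 5 genes were taken by symbol from the feature lists of the study, which hold 31053 genes in experiment 1 and 32285 in experiment 2, and each symbol was found in all 4 gene expression libraries. Their unique molecular identifiers (UMIs, counted transcript molecules) were followed across CD8 T barcodes by the amount of Pdcd1 RNA, by the size of the cell's T cell clone and by treatment. A barcode, the tag of 1 droplet, was taken as a CD8 T cell when it held at least 1 UMI of Cd8a or Cd8b1 and at least 1 UMI of Cd3d, Cd3e or Cd3g, and when 500 or more genes were detected in it and mitochondrial genes gave less than 10% of its UMIs.

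The cells were CD8 T cells isolated from tumours that the colon carcinoma line MC38 had formed in wild-type C57BL/6 mice. Experiment 1 set a subcutaneous dose of 10 mg/kg rhIL-7-hyFc, human interleukin 7 joined to a hybrid Fc, against buffer, with tumours taken on day 7 and CD8 T cells enriched with IMag magnetic beads. In experiment 2 both groups were given the same agent subcutaneously at 1.25 mg/kg, and 1 of them also an intravenous T cell engager that binds mouse PD-L1 and CD3ε, and live CD45+ TCRb+ CD8a+ cells were sorted 24 hours after the last treatment. The labels give the number 3 both for the engager doses and for the days between the cytokine and the engager, and neither the number of pooled mice nor their age is given in the sources used here. Each group was 1 library with a paired T cell receptor library, so no test between groups was possible, cells are not replicates, and each interval below covers counting error only. Levels are a gene's UMIs per 1000000 UMIs (CPM) of the summed CD8 T barcodes, with 95% exact Poisson intervals, and ratios of levels carry 95% exact binomial intervals. A ratio of at least 1.5-fold is used as a size to count by, not as a test.

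CCR7 is the chemokine receptor that brings naive and central memory T cells into lymph nodes along CCL19 and CCL21. S1PR1 reads the sphingosine 1-phosphate (S1P) gradient that draws T cells back out into lymph and blood, and S1PR4 is a second S1P receptor of lymphocytes. KLF2 is a zinc finger factor of quiescent T cells that binds the S1pr1 gene. KLF3 is a related factor that binds CACCC-type sites and acts mainly as a repressor. Activation through the T cell receptor is known to lower Klf2 and with it S1pr1, and T cells held in tissues usually lack both.

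By the GENCODE M21 annotation of mouse build GRCm38, all 5 are protein-coding genes. S1pr1 lies on chromosome 3 from 115710433 to 115715072 on the minus strand, and S1pr4 on chromosome 10 from 81497747 to 81500132, also on the minus strand. Ccr7 lies on chromosome 11 from 99144196 to 99155077 on the minus strand. Klf2 lies on chromosome 8 from 72319033 to 72321656 and Klf3 on chromosome 5 from 64803388 to 64832901, both on the plus strand.

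The promoter windows of Klf2, Klf3 and S1pr4 are shown, since the RefSeq promoter table (build GRCm38.p6) held these 3 of the 5 genes. It did not hold S1pr1 or Ccr7. Each window runs 5′ to 3′ on the gene's own strand from 250 bases before the start to 50 after it. Capitals mark matches to CACCC, the core of KLF-type sites, or to CTANNNNTAG, on either strand, so that a CACCC on the opposite strand reads GGGTG. CTANNNNTAG is a loose form of the MEF2 site that allows any 4 bases in its middle, so its share of windows is not that of strict MEF2 sites.
Klf2, chr8:72318812-72319111, plus strand: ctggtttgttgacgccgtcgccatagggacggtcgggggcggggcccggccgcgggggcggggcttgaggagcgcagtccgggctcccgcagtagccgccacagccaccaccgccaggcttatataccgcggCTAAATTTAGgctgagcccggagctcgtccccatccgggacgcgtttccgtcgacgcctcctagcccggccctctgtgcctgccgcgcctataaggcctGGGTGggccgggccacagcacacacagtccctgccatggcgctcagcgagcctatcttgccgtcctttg
Klf3, chr5:64803271-64803570, plus strand: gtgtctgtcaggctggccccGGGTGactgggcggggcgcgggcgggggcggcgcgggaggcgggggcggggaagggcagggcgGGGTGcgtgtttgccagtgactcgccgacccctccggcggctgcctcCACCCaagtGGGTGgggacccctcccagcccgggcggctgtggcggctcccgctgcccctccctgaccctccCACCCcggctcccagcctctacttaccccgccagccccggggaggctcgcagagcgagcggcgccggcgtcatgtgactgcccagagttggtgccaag
S1pr4, chr10:81500088-81500387, minus strand: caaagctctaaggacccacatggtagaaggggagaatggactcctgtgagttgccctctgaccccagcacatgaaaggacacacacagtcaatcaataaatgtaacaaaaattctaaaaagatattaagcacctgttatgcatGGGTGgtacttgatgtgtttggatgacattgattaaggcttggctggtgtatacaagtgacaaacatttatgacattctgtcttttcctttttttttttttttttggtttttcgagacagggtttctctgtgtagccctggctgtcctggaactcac
The Klf3 window held 5 matches to CACCC, and the Klf2 and S1pr4 windows held 1 each, at a motif found in 57.5% of all 32851 windows of 300 bases. The Klf2 window held the only MEF2-type match, from 118 to 109 bases before the start (-118 to -109), a motif found in 3.69% of windows. None of the 3 windows held GTAAACA, a forkhead site found in 3.65% of windows, or CCGGAAG, an ETS site found in 8.86%. The Klf2 and Klf3 windows were rich in G and C, at 69.3% and 76.7%, with 32 and 29 CG pairs, against a median window of 52.7% with 7. The S1pr4 window had 41.0% G and C and 1 CG pair. A match is a description of the letters and not evidence of binding.

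The 4 libraries held 3975, 5622, 10888 and 10933 CD8 T barcodes, listed here and below as buffer, 10 mg/kg, 1.25 mg/kg and the combination with the engager, which was 84.6% to 96.7% of the barcodes that passed the filters. Their summed UMIs ran from 41144471 to 109627615 and the median UMIs per barcode from 6700 to 9726. All 10 T cell markers were found in each library, with Cd8a between 759 and 1144 CPM and Cd8b1 between 839 and 1201 CPM. RNA of other cells was present and uneven. All 10 macrophage and monocyte markers had UMIs in each library, and their summed level was 1033 CPM with buffer against 257 CPM with 10 mg/kg, and 3096 CPM with 1.25 mg/kg against 792 CPM in the combination. The 6 markers of CCR7-positive dendritic cells, a type that itself carries Ccr7, summed to 254 CPM with buffer against 9.0 CPM with 10 mg/kg, and to 69.4 against 47.2 CPM in experiment 2, with Fscn1 the highest and Ccl19 at 0 in each library. Summed NK cell markers, some of which CD8 T cells share, ran from 87.4 to 867 CPM, and the other 6 marker lists lay between 2.3 and 118 CPM. The share of CD8 T barcodes with 3 or more UMIs of macrophage, dendritic cell, neutrophil or B cell markers was 31.6%, 23.9%, 38.4% and 11.4%. Each comparison of treatments is therefore given over all CD8 T barcodes and over those with under 3 such UMIs, called low-admixture barcodes below. Between 31 and 165 barcodes recurred between pairs of libraries, and 0 of them carried the same T cell receptor beta chain.

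Over all CD8 T cells Ccr7 was the most abundant of the 5 by UMIs and Klf3 or S1pr1 the least, although 5′ counts of different genes are not exactly comparable. S1pr1 stood at 23.9 CPM (22.4 to 25.5) with buffer, 104.5 (102.0 to 107.1) with 10 mg/kg, 23.6 (22.7 to 24.6) with 1.25 mg/kg and 25.4 (24.4 to 26.5) in the combination. The 10 mg/kg library was far above the other 3, whose levels lay close together. S1pr4 stood at 53.0 CPM (50.8 to 55.3), 76.5 (74.3 to 78.7), 63.4 (62.0 to 64.9) and 106.9 (104.8 to 109.1) in the same order. Its highest level was in the combination, where S1pr1 was low. Ccr7 stood at 382 CPM (376 to 388), 689 (683 to 696), 416 (413 to 420) and 370 (366 to 374). Klf2 stood at 134 CPM (130 to 138), 202 (198 to 205), 135 (133 to 137) and 104 (101 to 106), so that its levels with buffer and with 1.25 mg/kg overlapped. Klf3 stood at 14.7 CPM (13.5 to 15.9), 50.2 (48.5 to 52.0), 54.2 (52.9 to 55.6) and 41.8 (40.4 to 43.1). Levels of the 2 experiments are set side by side only to show their range, since dose, timing, cell isolation and software differed between them.

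**Figure D1:**
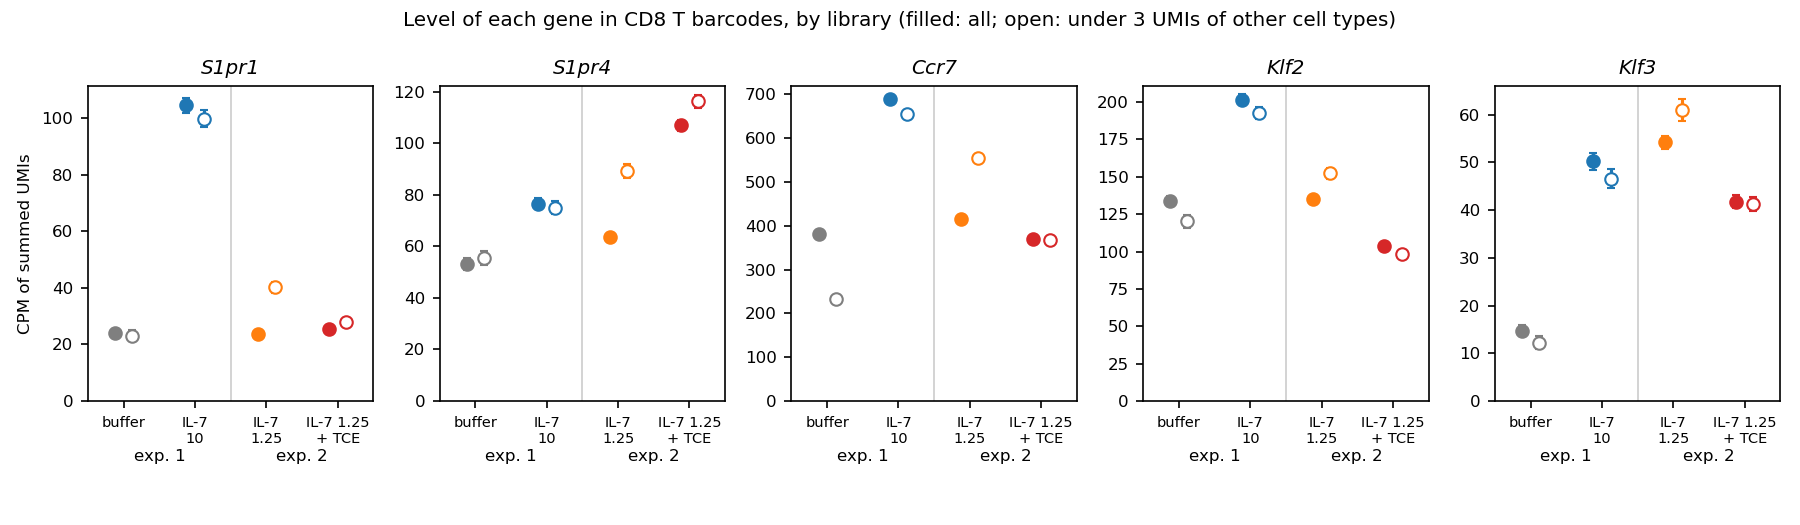
CPM of each gene (y axis, linear) in the 4 libraries (x axis: buffer, 10 mg/kg, 1.25 mg/kg and combination), filled points for all CD8 T barcodes, open points for those with under 3 UMIs of other cell types, bars for 95% counting intervals. S1pr1 and Klf3 stood highest against their comparison library with 10 mg/kg, and for S1pr1 and S1pr4 the open point of the 1.25 mg/kg library lies well above the filled one (40.1 against 23.6 CPM, and 89.2 against 63.4 CPM).

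The first question was how the 5 genes differed between CD8 T cells with and without RNA of Pdcd1, which encodes the inhibitory receptor PD-1 that T cells carry after stimulation by antigen. In each library S1pr1, Ccr7, Klf2 and Klf3 were more than 1.5-fold lower in cells with a Pdcd1 UMI than in cells with none, and S1pr4 differed least. Of all genes with at least 5 CPM in either class, 17.9%, 8.25%, 8.36% and 5.55% were at least 1.5-fold lower in the 4 libraries. S1pr1 was 69.2 CPM without and 10.8 CPM with Pdcd1 in the buffer library, 6.43-fold lower (5.63 to 7.35). It was 130.4 and 22.9 CPM with 10 mg/kg, 5.68-fold lower (5.09 to 6.36). In experiment 2 it was 67.9 and 8.38 CPM with 1.25 mg/kg, 8.10-fold lower (7.42 to 8.85), and 56.9 and 12.3 CPM in the combination, 4.63-fold lower (4.25 to 5.05). Klf3 was lower in each library too, 5.01-fold (4.25 to 5.91), 4.92-fold (4.24 to 5.74), 3.59-fold (3.41 to 3.78) and 4.12-fold (3.86 to 4.41).

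Klf2 and Ccr7 were lower by less, and by unequal amounts. Klf2 was 322 CPM without and 79.1 CPM with Pdcd1 with buffer, 4.07-fold lower (3.86 to 4.30), and 154 and 82.5 CPM in the combination, 1.87-fold lower (1.79 to 1.95). With 10 mg/kg Klf2 was 3.35-fold lower (3.15 to 3.57) and with 1.25 mg/kg 2.40-fold lower (2.32 to 2.48). Ccr7 was 2.10-fold lower (2.03 to 2.17) with buffer, 3.94-fold (3.80 to 4.09) with 10 mg/kg, 3.08-fold (3.03 to 3.14) with 1.25 mg/kg and 2.11-fold (2.06 to 2.15) in the combination. S1pr4 was 59.5 CPM without and 51.1 CPM with Pdcd1 with buffer, a ratio of 1.16 (1.05 to 1.28). In the other libraries it was 1.38-fold lower (1.28 to 1.49), 1.54-fold (1.47 to 1.62) and 1.49-fold lower (1.43 to 1.55) with Pdcd1. It was thus past 1.5-fold in 1 of the 4 libraries. Dividing cells, with a UMI of Mki67 or Top2a, were 15.6% to 23.8% of cells without and 29.9% to 45.5% of cells with Pdcd1, and their part in these ratios was not tested. Cd8a was 2.64-fold, 1.72-fold, 1.51-fold and 1.74-fold higher with Pdcd1 in the 4 libraries. Cd8b1 was 2.22-fold higher with buffer, against ratios of 1.04, 1.00 and 1.06 in the others.

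Among low-admixture barcodes the contrast was larger for Klf3, Klf2 and Ccr7 in all 4 libraries and for S1pr1 in 3 of the 4. S1pr1 was then 97.8 and 8.17 CPM with buffer, 12-fold lower (10.0 to 14.3), and 83.4 and 7.93 CPM with 1.25 mg/kg, 10.5-fold lower (9.04 to 12.3). Klf3 was 10.0-fold lower (7.93 to 12.8) with buffer and 9.87-fold lower (8.75 to 11.2) with 1.25 mg/kg. In that library Klf2 was 3.86-fold lower (3.65 to 4.09) and Ccr7 4.65-fold lower (4.51 to 4.80), both over 1.5 times the ratio of all barcodes. In the combination S1pr1 was 4.31-fold lower (3.92 to 4.74), less than the 4.63-fold over all barcodes. S1pr4 was 1.65-fold lower (1.46 to 1.86) with buffer, 1.30-fold (1.19 to 1.41) with 10 mg/kg, 1.29-fold (1.21 to 1.38) with 1.25 mg/kg and 1.34-fold (1.28 to 1.40) in the combination. Its library past 1.5-fold was therefore the buffer library instead of the 1.25 mg/kg library.

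Most of these differences were graded with the number of Pdcd1 UMIs. S1pr1 in the buffer library stood at 69.2, 44.5, 22.8, 13.6 and 3.75 CPM in cells with 0, 1, 2, 3 to 5 and 6 or more Pdcd1 UMIs. With 10 mg/kg the same steps gave 130.4, 89.5, 36.8, 22.2 and 9.86 CPM, and in the combination 56.9, 32.8, 23.3, 14.4 and 7.03 CPM. With 1.25 mg/kg most of the decline came at the first UMI, from 67.9 to 17.9 CPM, followed by 14.1, 9.65 and 6.31 CPM. Klf2 and Klf3 also declined at each step of each library. Ccr7 did so only with 10 mg/kg, at 840, 662, 467, 235 and 107 CPM. With buffer Ccr7 was 643 CPM at 0 and 698 CPM at 1 Pdcd1 UMI, and 403 CPM at 2 against 433 CPM at 3 to 5. With 1.25 mg/kg Ccr7 was between 255 and 321 CPM at the 4 steps above 0. S1pr4 stayed between 49.5 and 59.5 CPM over the 5 steps of the buffer library, but went from 86.0 to 54.7 CPM with 1.25 mg/kg and from 139 to 85.0 CPM in the combination. Deeper cells more readily show a Pdcd1 UMI, and the median UMIs per cell were 6027.5 at 0 and 13987 at 6 or more in the buffer library. Pdcd1 was therefore also read from cells thinned at random to 1 depth, 1600 UMIs in experiment 1 and 3600 in experiment 2. The median log2 ratio of the 5 genes was then -1.74, -2.67, -1.22 and -1.01 in the 4 libraries, against -2.03, -1.98, -1.62 and -1.07 without thinning. Thinning also moved cells with Pdcd1 UMIs into the class without, which held 2036 of 3602 buffer cells against 1306 of 3975 before.

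**Figure D2:**
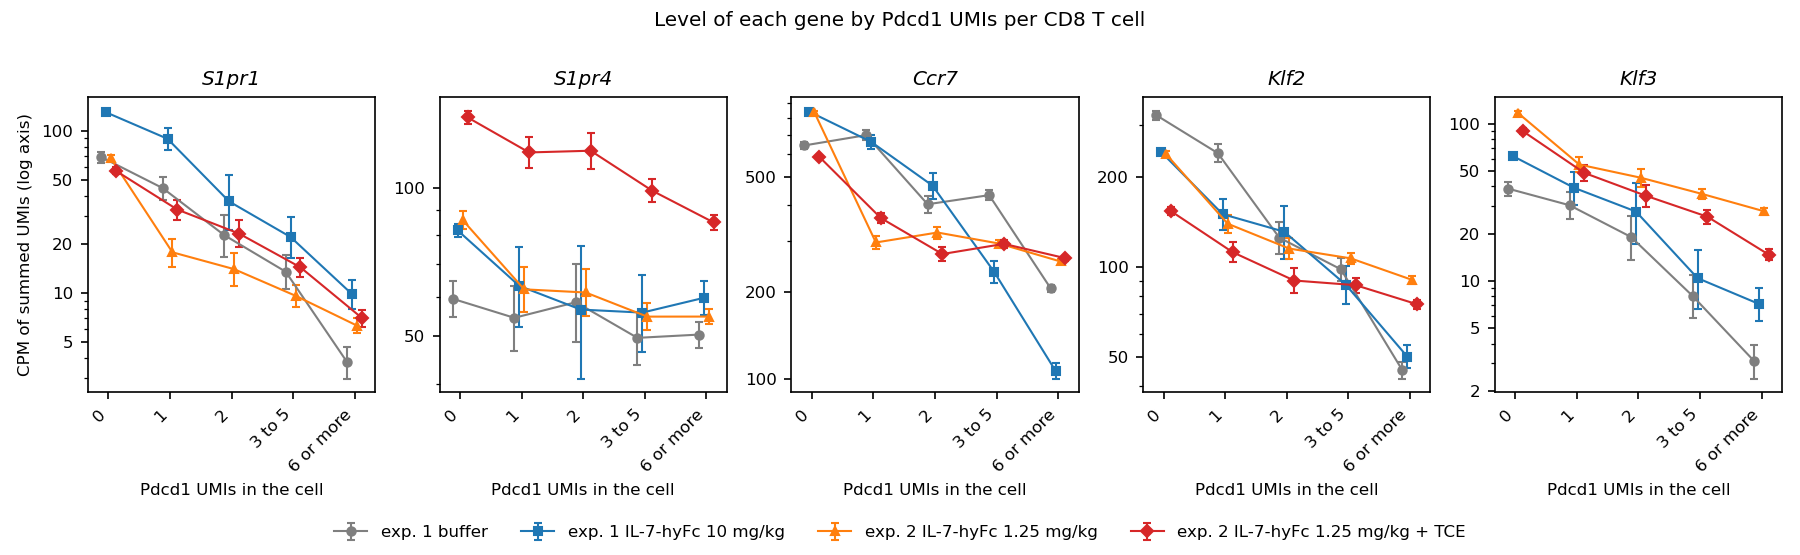
CPM of each gene (y axes, log scale) by the number of Pdcd1 UMIs in the cell (x axes, 5 steps), 1 line per library, bars for 95% counting intervals. S1pr1 goes from 69.2 to 3.75 CPM in the buffer line and Klf3 from 38.6 to 3.10 CPM, while S1pr4 stays between 49.5 and 59.5 CPM there and goes from 139 to 85.0 CPM in the combination line.

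The second question was how the genes varied with clonal expansion. A clonotype was defined by the V gene and CDR3 nucleotides of the beta chain with most UMIs, and its size counted among CD8 T barcodes of the library, of which 2873, 5303, 6879 and 7997 had a beta chain. Cells of clonotypes seen once numbered 965, 4613, 3583 and 3740, and cells of clonotypes with 5 or more cells 1665, 460, 2803 and 3717. The clone sizes leave out 1102, 319, 4009 and 2936 cells without a beta chain. Of these, 48.0%, 24.1%, 73.3% and 69.9% had a Pdcd1 UMI. Shares with 3 or more UMIs of other cell types were 44.1%, 38.2%, 59.9% and 24.7%. Their median UMIs were 2753, 9975, 12889 and 8887.5. The values by clone size therefore do not cover all CD8 T cells of a library. The separation of S1pr1 was wider here than by Pdcd1. Of all genes with at least 5 CPM in either class, 9.34%, 11.1%, 9.3% and 7.49% were at least 1.5-fold lower in expanded clonotypes, against 4 of the 5 genes in the first 3 libraries and 5 of 5 in the combination. In expanded clonotypes S1pr1 was 3.53 CPM against 83.8 CPM in clonotypes of 1 cell with buffer, 23.7-fold lower (18.8 to 30.4). It was 7.50 against 126 CPM with 10 mg/kg, 16.8-fold lower (12.9 to 22.5). In experiment 2 it was 3.20 against 64.7 CPM with 1.25 mg/kg, 20.2-fold lower (16.1 to 25.7), and 2.87 against 55.5 CPM in the combination, 19.3-fold lower (15.4 to 24.6). The 4 ratios have overlapping intervals.

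Klf3 was also far lower in expanded clonotypes, 12-fold (9.33 to 15.6), 15.1-fold (10.4 to 22.8) and 13.9-fold (11.8 to 16.3) in the buffer, 10 mg/kg and combination libraries. With 1.25 mg/kg the ratio was smaller, 19.7 against 112 CPM or 5.69-fold lower (5.16 to 6.28). In low-admixture barcodes of that library Klf3 in expanded clonotypes was 4.09 CPM, and the ratio 29.8-fold (22.9 to 39.7). Over the same barcodes of the other libraries Klf3 was 17.9-fold (12.8 to 25.8), 29.1-fold (16.6 to 56.5) and 40.3-fold (30.5 to 54.3) lower, the 10 mg/kg ratio resting on 12 UMIs. Non-T barcodes with macrophage RNA carried Klf3 in 27.3% of cases with 1.25 mg/kg, against 17.9% of its CD8 T barcodes at equal depth, and the part of such RNA in the smaller ratio was not tested.

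Klf2 was 6.08-fold (5.68 to 6.52), 3.85-fold (3.5 to 4.25), 2.63-fold (2.5 to 2.76) and 1.91-fold (1.81 to 2.02) lower in expanded clonotypes in the 4 libraries. Its level in expanded clonotypes was 53.9, 60.8, 88.0 and 72.8 CPM, a narrower range than the 328, 234, 231 and 139 CPM of clonotypes of 1 cell. Ccr7 was 13.2-fold lower (12.1 to 14.6) with 10 mg/kg, from 828 to 62.5 CPM, but 3.34-fold (3.20 to 3.5), 3.95-fold (3.84 to 4.08) and 2.66-fold (2.58 to 2.74) lower with buffer, 1.25 mg/kg and in the combination. Expanded clonotypes of those 3 libraries kept Ccr7 at 155, 213 and 218 CPM. In low-admixture barcodes these levels were 101, 135 and 160 CPM, against 49.6 CPM with 10 mg/kg, and Ccr7 was 5.68-fold (5.34 to 6.03), 7.35-fold (7.00 to 7.72) and 3.64-fold (3.52 to 3.77) lower. Klf2 with 1.25 mg/kg was then 4.19-fold lower (3.89 to 4.52) in place of 2.63-fold. S1pr4 was 52.5, 60.7, 62.8 and 85.9 CPM in expanded clonotypes against 71.3, 80.9, 86.7 and 140 CPM in clonotypes of 1 cell. These ratios lay between 1.33-fold and 1.63-fold lower, past 1.5-fold in the combination alone.

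**Figure D3:**
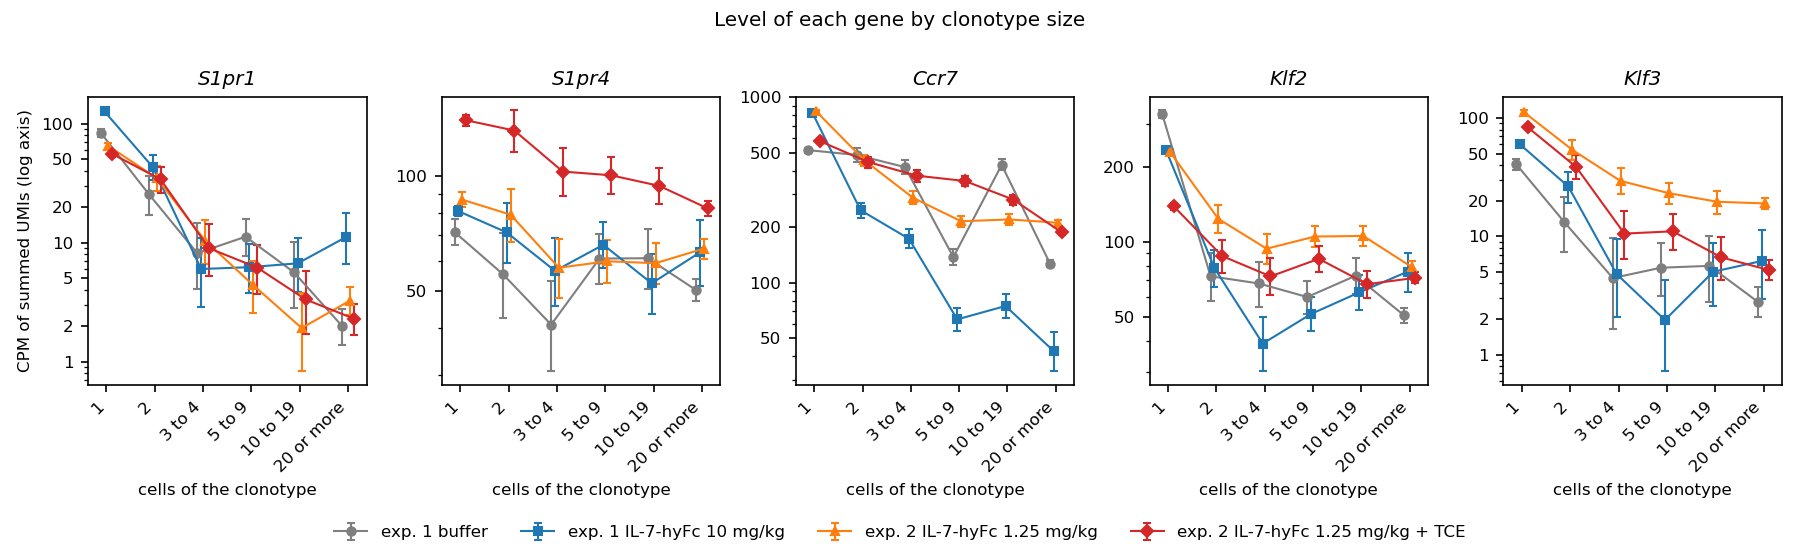
CPM of each gene (y axes, log scale) by the number of cells of the clonotype (x axes, 6 steps), 1 line per library, bars for 95% counting intervals. S1pr1 in the buffer line goes from 83.8 CPM in clonotypes of 1 cell to 8.14 CPM at 3 to 4, and S1pr4 in the combination goes from 140 CPM to 82.3 CPM at 20 or more cells.

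The decline with clone size was steep at the first steps. S1pr1 with buffer stood at 83.8 CPM in clonotypes of 1 cell, 25.4 CPM at 2 cells, 8.14 CPM at 3 to 4, 11.2 CPM at 5 to 9, 5.62 CPM at 10 to 19 and 1.98 CPM at 20 or more. With 10 mg/kg the largest step, 5 clonotypes with 18 S1pr1 UMIs, gave 11.1 CPM (6.59 to 17.6), not lower than the 6.21 CPM at 5 to 9 cells. Ccr7 with buffer was uneven, at 137 CPM for 5 to 9 cells, 432 CPM for 10 to 19 and 127 CPM for 20 or more. Single clonotypes of at least 10 cells varied widely. S1pr1 had 0 UMIs in 17 of 36 such clonotypes with buffer, 9 of 18 with 10 mg/kg, 47 of 76 with 1.25 mg/kg and 56 of 84 in the combination, and its highest level in 1 clonotype was 58.0 CPM. S1pr4 and Klf2 had 0 UMIs in none of these clonotypes, and the median clonotype carried S1pr4 at 53.2, 57.4, 60.6 and 89.0 CPM. Ccr7 ranged from 8.60 to 1357 CPM over the 36 clonotypes of the buffer library, a wider range than that of S1pr4, 21.0 to 206 CPM.

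Cells of 1 clonotype share their receptor, so Pdcd1 state was also compared within clonotypes that had at least 3 cells in each state. Only 6, 1, 14 and 10 clonotypes qualified in the 4 libraries, and the cells without Pdcd1 in them numbered 41, 4, 63 and 66. With 1.25 mg/kg Klf3 was lower in the Pdcd1-positive cells of 11 of 14 clonotypes, at 15.5 against 63.2 CPM over their summed cells, 4.07-fold lower (2.56 to 6.24). Klf2 was lower in 10 of the 14, at 81.0 against 176 CPM, 2.17-fold lower (1.68 to 2.76). In the combination Klf2 was lower in 6 of 10, at 65.9 against 162 CPM. The counts of clonotypes went the other way elsewhere. Klf3 was lower in 1 and higher in 5 of 6 clonotypes with buffer, and lower in 3 and higher in 6 of 9 in the combination. Over summed cells Klf3 was lower in the Pdcd1-positive cells of both libraries. With buffer it was 5.83-fold lower (1.499 to 20.2), on 5 Pdcd1-negative and 8 Pdcd1-positive UMIs. In the combination it was 2.59-fold lower on 4 and 41 UMIs, with an interval that includes no difference (0.674 to 7.15). With so few UMIs the Klf3 counts cannot decide a direction, because the fewer Pdcd1-negative cells of a clonotype can lack a UMI. Klf2 with buffer was lower in 2 and higher in 4 of 6, although 4.72-fold lower (3.09 to 7.11) over their summed cells. S1pr4 with buffer was lower in 4 of 6 clonotypes, at 40.5 against 128 CPM, 3.16-fold lower (2.12 to 4.63). In experiment 2 it was higher in 9 of 14 and in 8 of 10 clonotypes, with ratios whose intervals include no difference, 1.38 (0.901 to 2.22) and 1.53 (0.975 to 2.56). Ccr7 went against its library-wide direction in the combination, where it was higher in the Pdcd1-positive cells of 8 of 9 clonotypes with a UMI, at 186 against 31.3 CPM, 5.93-fold higher (3.30 to 11.9). That ratio rests on 11 UMIs in the Pdcd1-negative and 1732 in the Pdcd1-positive cells. The limit named for the Klf3 counts, Pdcd1-negative cells that can lack a UMI, also holds for the counts of clonotypes of Ccr7 and S1pr4. With 1.25 mg/kg Ccr7 was higher in 10 of 14 clonotypes, although lower over their summed cells, at 203 against 344 CPM. With buffer it was higher over summed cells, 75.4 against 31.2 CPM, 2.42-fold (1.25 to 5.37), though lower in 3 of 5 clonotypes. S1pr1 had 9 UMIs in each state with buffer, 9.32-fold lower (3.28 to 26.5) with Pdcd1 over summed cells but lower in 2 and higher in 3 of 5 clonotypes, and 5 and 2 UMIs in the Pdcd1-negative cells of experiment 2.

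The third question was the difference between treatments. In experiment 1, 4 of the 5 genes were at least 1.5-fold higher with rhIL-7-hyFc at 10 mg/kg than with buffer, where 6.33% of the 9067 measured genes were (at least 5 CPM in 1 library), and 0 of the 5 were at least 1.5-fold lower, where 21.4% of genes were. S1pr1 was 4.37-fold higher (4.09 to 4.68), Klf3 3.42-fold (3.13 to 3.74), Ccr7 1.80-fold (1.77 to 1.84) and Klf2 1.51-fold (1.46 to 1.56). S1pr4 was 1.44-fold higher (1.37 to 1.52), just under that size. The median log2 ratio of the 5 genes was 0.85, against -0.20 over all measured genes. TMM scaling moved all ratios of this experiment by 0.27 on the log2 scale and put all 5 genes past 1.5-fold. Weighting the 6 strata of Pdcd1 state and clone size as in the buffer library left 0 of the 5 past 1.5-fold, with S1pr1 at a log2 ratio of 0.34. Pdcd1 was 3.65-fold lower (3.56 to 3.74), and the share of cells with a Pdcd1 UMI was 17.4% against 67.1%. In low-admixture barcodes S1pr1 was 4.32-fold higher (3.97 to 4.71), Klf3 3.82-fold (3.40 to 4.31) and Klf2 1.60-fold (1.54 to 1.67). Ccr7 was then 232 CPM with buffer and 655 CPM with 10 mg/kg, 2.82-fold higher (2.74 to 2.90) in place of 1.80-fold. Ccr7 in the buffer library was 2.81-fold higher (2.72 to 2.90) in barcodes with 3 or more UMIs of other cell types. The part of dendritic cells in that Ccr7 was not tested.

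Within Pdcd1-negative cells the differences of experiment 1 were smaller, and for Klf2 the direction turned. Among cells with no Pdcd1 UMI, S1pr1 was 69.2 CPM with buffer and 130.4 CPM with 10 mg/kg, 1.89-fold higher (1.74 to 2.05), and in low-admixture barcodes 97.8 and 129 CPM, 1.32-fold higher (1.20 to 1.46). Cd8b1 of the same class was 582 and 1189 CPM over all barcodes, 2.04-fold higher (1.99 to 2.10). The class thus also differed between the libraries in a CD8 T cell marker, and the part of other cells in it was not tested. Klf3 was 1.61-fold higher (1.44 to 1.80), and 1.24-fold (1.07 to 1.43) in low-admixture barcodes. Ccr7 was 1.31-fold higher (1.27 to 1.34), and 1.82-fold (1.74 to 1.90) in low-admixture barcodes. In Pdcd1-positive cells it was lower with 10 mg/kg instead, 306 and 213 CPM, 1.44-fold (1.38 to 1.49), and 1.08-fold (1.03 to 1.14) in low-admixture barcodes. Klf2 of Pdcd1-negative cells was 322 CPM with buffer and 243 CPM with 10 mg/kg, 1.33-fold lower (1.27 to 1.38), and 1.57-fold lower (1.49 to 1.66) in low-admixture barcodes, at 379 and 241 CPM. The same turn of Klf2 was found in clonotypes of 1 cell, where it was 1.40-fold lower (1.34 to 1.46), and 1.52-fold lower (1.44 to 1.60) in low-admixture barcodes. With TMM scaling Klf2 stayed lower in both classes, at log2 ratios of -0.14 and -0.22, but not in Pdcd1-positive cells, where 1.09-fold lower became a log2 ratio of 0.14. In clonotypes of 5 or more cells Klf2 did not turn, at 53.9 and 60.8 CPM, 1.13-fold higher (1.01 to 1.26), and of the 6 strata it was past 1.5-fold lower in 2 and higher in 1. Where Pdcd1 was read from thinned cells, the log2 ratio of Klf2 among Pdcd1-negative cells was 0.17. Thinning put 2036 of 3602 buffer cells and 5015 of 5543 cells with 10 mg/kg in that class. The class then also holds cells with Pdcd1 UMIs before thinning, unevenly between the libraries, so this value cannot decide whether the turn holds. Without thinning, Pdcd1-negative cells, which carry the higher Klf2, were 4643 of 5622 with 10 mg/kg against 1306 of 3975 with buffer.

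S1pr1 was higher with 10 mg/kg in each class of experiment 1. It was 1.51-fold higher (1.39 to 1.63) in clonotypes of 1 cell, 1.55-fold (1.05 to 2.32) in clonotypes of 2 to 4 and 2.12-fold (1.47 to 3.05) in clonotypes of 5 or more, where it went from 3.53 to 7.50 CPM. Among Pdcd1-positive cells it went from 10.8 to 22.9 CPM, 2.13-fold higher (1.83 to 2.49). In low-admixture barcodes the ratio was 1.44-fold (1.30 to 1.59) in clonotypes of 1 cell, 1.15-fold (0.746 to 1.80) in those of 2 to 4 and 2.07-fold (1.34 to 3.17) in those of 5 or more. Ccr7 went in opposite directions with clone size, 1.60-fold higher (1.55 to 1.65) in clonotypes of 1 cell but 2.15-fold lower (1.95 to 2.36) in those of 2 to 4 and 2.48-fold lower (2.25 to 2.75) in those of 5 or more. In low-admixture barcodes these were 1.43-fold higher (1.37 to 1.48), 2.84-fold lower (2.53 to 3.18) and 2.03-fold lower (1.79 to 2.30). S1pr4 lay between 1.13-fold and 1.38-fold higher in the 5 classes, and in low-admixture Pdcd1-negative cells its levels overlapped, at 82.6 and 79.9 CPM, 1.03-fold lower (0.924 to 1.15).

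In experiment 2, 1 of the 5 genes was at least 1.5-fold higher in the combination than with rhIL-7-hyFc alone, where 2.54% of 9308 measured genes were, and 0 of 5 were at least 1.5-fold lower, where 9.01% of genes were. That gene was S1pr4, 63.4 and 106.9 CPM, 1.69-fold higher (1.63 to 1.74). S1pr1 was 1.08-fold higher (1.02 to 1.14), Ccr7 1.13-fold lower (1.11 to 1.14), Klf2 1.31-fold lower (1.27 to 1.34) and Klf3 1.30-fold lower (1.25 to 1.35). The median log2 ratio of the 5 was -0.17, against 0.081 over all genes. In low-admixture barcodes both counts changed, to 0 of 5 higher and 2 of 5 lower, where 1.64% and 2.33% of 8916 genes were. S1pr4 was then 89.2 and 116 CPM, 1.30-fold higher (1.25 to 1.36). S1pr1 turned to 40.1 and 28.0 CPM, 1.43-fold lower (1.34 to 1.53). Ccr7 was 556 and 369 CPM, 1.51-fold lower (1.48 to 1.54), and Klf2 152 and 98.2 CPM, 1.55-fold lower (1.5 to 1.61). Klf3 was 61.0 and 41.3 CPM, 1.48-fold lower (1.40 to 1.56). The values changed mainly in the 1.25 mg/kg library, where 4180 of 10888 barcodes were left out, against 1246 of 10933 in the combination. Those left out were 49.9% of Pdcd1-positive and 22.0% of Pdcd1-negative cells with 1.25 mg/kg, against 13.5% and 7.70% in the combination. The low-admixture ratios over all cells thus also compare a changed mix of Pdcd1 states, whose part in them was not tested.

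By class of cell, S1pr4 was higher in the combination in each class of experiment 2, 1.62-fold (1.54 to 1.70) in Pdcd1-negative and 1.68-fold (1.62 to 1.75) in Pdcd1-positive cells, and 1.62-fold (1.53 to 1.71), 1.73-fold (1.49 to 2.02) and 1.37-fold (1.28 to 1.46) with rising clone size. In low-admixture barcodes it was still higher in each of these 5 classes, by 1.14-fold to 1.38-fold. Klf2 was lower where it was abundant, 1.55-fold (1.49 to 1.61) in Pdcd1-negative cells and 1.66-fold (1.59 to 1.73) in clonotypes of 1 cell, and 1.77-fold (1.69 to 1.85) and 1.90-fold (1.82 to 1.99) in the low-admixture barcodes of these classes. Its levels overlapped in low-admixture expanded clonotypes, at 62.4 and 64.5 CPM, 1.03-fold higher (0.951 to 1.13). Ccr7 was 1.67-fold lower (1.63 to 1.71) in low-admixture Pdcd1-negative cells, 1011 and 605 CPM, and 1.14-fold higher (1.11 to 1.18) in Pdcd1-positive ones. For S1pr1 the values were 1.46-fold lower (1.36 to 1.57) in low-admixture Pdcd1-negative and 1.67-fold higher (1.42 to 1.98) in Pdcd1-positive cells, 7.93 and 13.3 CPM. Over all barcodes, S1pr1 of Pdcd1-negative cells had a log2 ratio of 0.083 with Pdcd1 read from thinned cells. Thinning put 4814 of 9812 and 4253 of 10049 cells in that class, against 4484 of 10888 and 3921 of 10933 before. The class then also holds cells with Pdcd1 UMIs before thinning, so the value of 0.083 cannot decide a direction. Klf3 of Pdcd1-positive cells was 32.6 and 21.7 CPM over all barcodes, lower in the combination, and 12.7 and 17.3 CPM in low-admixture ones, 1.36-fold higher (1.19 to 1.56). Klf3 was 3.27-fold lower (2.73 to 3.93) in expanded clonotypes, 19.7 and 6.03 CPM, and 1.97-fold lower (1.33 to 2.94) in their low-admixture barcodes, 4.09 and 2.07 CPM on 56 and 51 UMIs. The difference between classes was not tested.

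**Figure D4:**
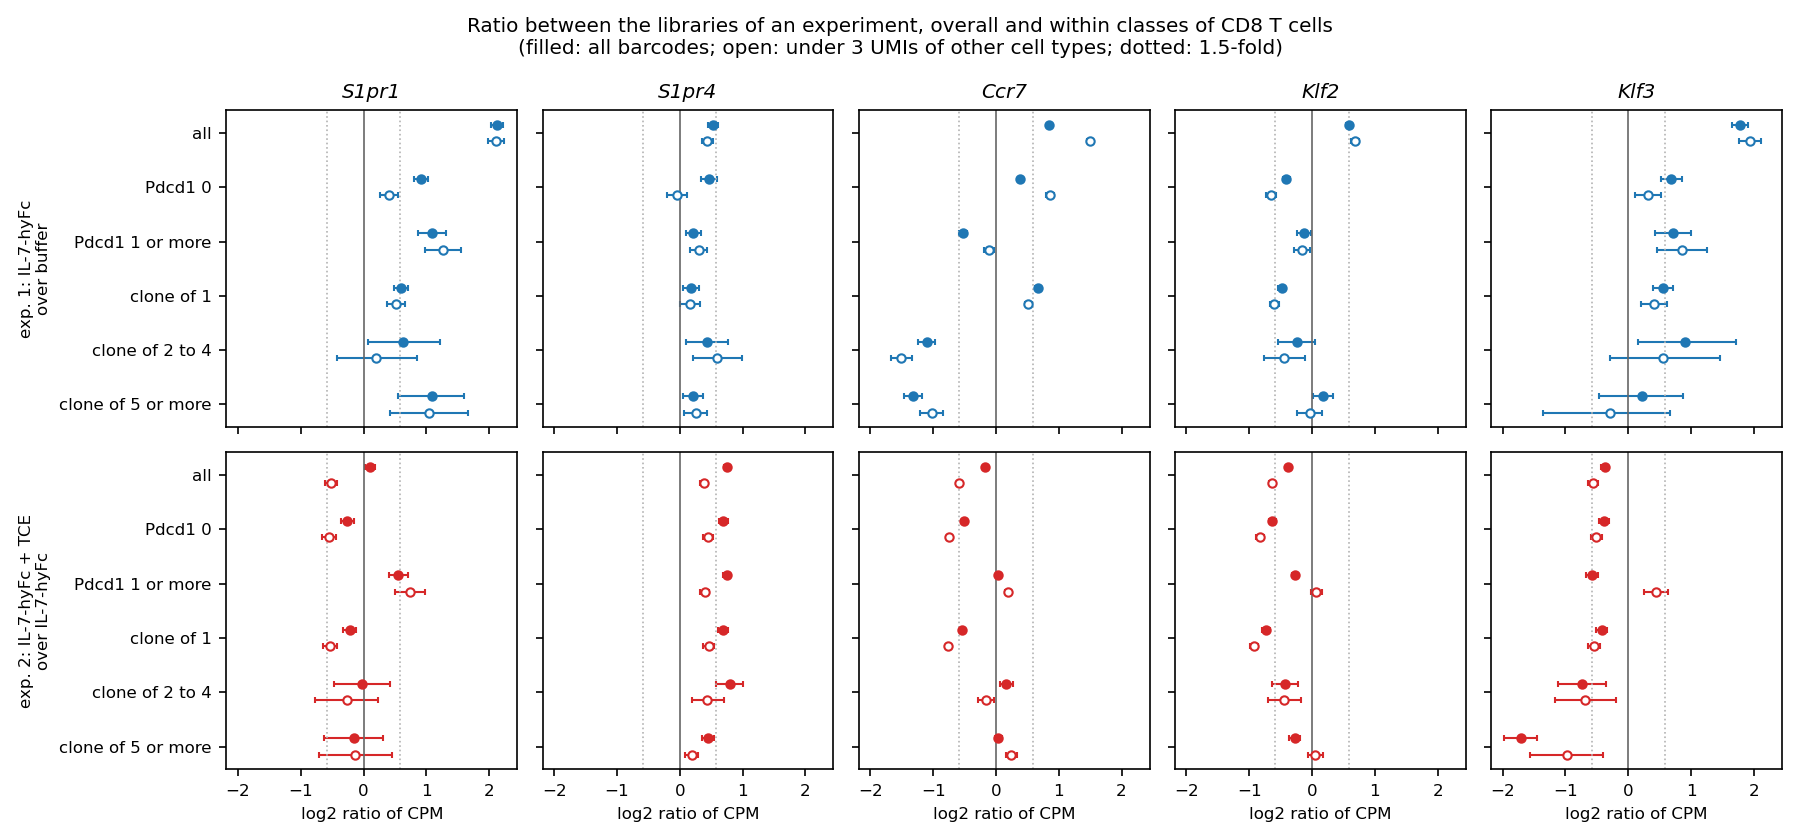
Log2 ratio of CPM (x axes) between the libraries of experiment 1 (top, rhIL-7-hyFc 10 mg/kg over buffer) and experiment 2 (bottom, combination over rhIL-7-hyFc), over all CD8 T cells and in 5 classes (y axes), filled for all barcodes, open for those with under 3 UMIs of other cell types, bars for 95% counting intervals and dotted lines at 1.5-fold. In experiment 1 Klf2 lies right of 0 over all cells (1.51-fold higher) and left of 0 in Pdcd1-negative cells (1.33-fold lower), and in experiment 2 the open points of S1pr4 lie left of the filled ones.

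To set shares of cells beside levels, each cell was thinned to the depths named above, which left out 373, 79, 1076 and 884 shallower CD8 T cells. S1pr1 was then detected in 4.66% of cells (exact binomial 95% interval 4.0 to 5.40) with buffer, 16.9% (15.9 to 17.9) with 10 mg/kg, 10.0% (9.42 to 10.6) with 1.25 mg/kg and 8.56% (8.02 to 9.12) in the combination. Without thinning the shares were 14.1%, 53.2%, 17.7% and 14.6%. Non-T barcodes with macrophage RNA, at median depths of 5413 to 12950.5 UMIs against 6700 to 9726 in CD8 T cells, held S1pr1 in 0% to 3.33% of 60 to 598 barcodes. Klf2 was detected in 18.5%, 26.2%, 30.6% and 21.2% of CD8 T cells but also in 23.2%, 15.1%, 32.8% and 55.0% of non-T barcodes. Its share therefore does not set CD8 T cells apart in the 3 libraries where the second value is higher. Klf3 was detected in 3.11%, 8.52%, 17.9% and 12.5% of CD8 T cells and in 2.90%, 5.04%, 27.3% and 31.7% of non-T barcodes. The Klf3 shares do not set CD8 T cells apart either. In experiment 1 the intervals of the non-T shares, 0.353 to 10.1 and 1.87 to 10.7, include the CD8 T shares. The part of RNA from other cells in the shares of Klf2 and Klf3 was not tested. Ccr7 and S1pr4 were detected in at most 2.52% of non-T barcodes. Of thinned cells, 40.3%, 72.0%, 70.2% and 65.0% held at least 1 of the 5 genes. Pdcd1-negative cells held 2 or more of the 5 in 16.4%, 36.5%, 55.4% and 46.2% of cases, and Pdcd1-positive cells in 4.60%, 6.06%, 16.8% and 15.1%.

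Pairs of the 5 genes were also compared in thinned cells, with no such values over other genes to set beside them. S1pr1 per 1000 cells was 36.1 UMIs without and 137 with a Klf2 UMI in the buffer library, 3.79-fold higher (2.83 to 5.07). It was 1.66-fold (1.47 to 1.88) higher with 10 mg/kg, 2.59-fold (2.31 to 2.91) with 1.25 mg/kg and 3.06-fold (2.70 to 3.46) in the combination. Ccr7 in buffer cells with an S1pr4 UMI was 2.12-fold lower (1.74 to 2.62). The reverse pair differed little, S1pr4 being 1.08-fold lower (0.819 to 1.43) in buffer cells with a Ccr7 UMI. Pairs were not recomputed in low-admixture barcodes. CD69 is known to bind S1PR1 and draw it off the cell surface, and at the level of RNA S1pr1 was not lower in cells with a Cd69 UMI. It was 2.02-fold higher (1.51 to 2.70) with buffer, 1.12-fold (0.998 to 1.27) with 10 mg/kg, 1.33-fold (1.18 to 1.5) with 1.25 mg/kg and 1.16-fold (1.01 to 1.34) in the combination.

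Likeness was then measured as Pearson correlation of log2(CPM + 1), centred on each experiment, over 24 strata formed by the 4 libraries, 2 Pdcd1 states and 3 clone sizes, among 5936 genes with at least 20 CPM in a library. The strata share libraries and the smallest held 16 cells, so the values are descriptions. S1pr1 was most like Pde2a, a cyclic nucleotide phosphodiesterase (r = 0.97), Acp5, an acid phosphatase (0.95), and Pdlim1, a cytoskeletal adaptor (0.95). Klf3 was most like Sh3bp5 (0.95), Socs3, a feedback inhibitor of cytokine signalling (0.95), and Ssh2, a cofilin phosphatase (0.95). S1pr1 and Klf3 correlated with each other at 0.92, and Klf2 with S1pr1 at 0.80. Klf2 was most like Tob1, an antiproliferative factor (0.88), Peli1, a ubiquitin ligase (0.85), and Dnajb9, a chaperone of the endoplasmic reticulum (0.85). Ccr7 was most like Pacsin1 (0.89), Dusp10, a phosphatase of stress kinases (0.88), and Utrn (0.84). S1pr4 was most like Arhgdib, an inhibitor of small GTPases (0.90), Atp5h, a subunit of ATP synthase (0.89), and Xrn2, a ribonuclease (0.86). Its correlations with the other 4 genes ran from 0.29 with Klf2 to 0.61 with S1pr1.

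Genes that act beside the 5 were counted by lists, as descriptions to be read against the 6.33% of genes higher and 21.4% lower in experiment 1. Their counts and ratios, in both experiments, are given over all CD8 T barcodes only, apart from Cd69. In experiment 1 the list of entry and exit partners had 3 of 11 measured genes at least 1.5-fold higher and 2 lower. Itga4 of that list, the alpha 4 integrin chain used at inflamed vessels, was 50.8 and 14.0 CPM, 3.62-fold lower (3.34 to 3.92). Of regulators upstream of KLF2 and of quiescence, 8 of 16 were higher and 0 lower, led by Tcf7, 4.23-fold (3.99 to 4.48), and Satb1, 3.61-fold (3.47 to 3.76), both transcription factors of naive and memory T cells. Foxo1, a factor that drives Klf2, was 1.90-fold higher (1.81 to 1.99). Genes of tissue retention and opposition to S1PR1 were lower in 7 of 9 and higher in 0, with Rgs16, a brake on G protein signalling, 3.80-fold lower (3.73 to 3.88) and Cxcr6, a chemokine receptor of resident cells, 3.25-fold lower (3.17 to 3.34). Cd69 of that list was 305 and 412 CPM, 1.35-fold higher (1.32 to 1.38), and 1.30-fold higher (1.27 to 1.33) in low-admixture barcodes. The list medians were log2 ratios of 0.21, 0.54 and -1.56, against -0.20 over all genes. S1pr2, the 1 other S1P receptor measured, was 1.85-fold lower (1.58 to 2.16). Of the other KLF genes 2 of 7 were lower, near the share of all genes, Klf6 2.39-fold (2.33 to 2.45) and Klf4 1.86-fold (1.70 to 2.05). Of genes that make or break down S1P 3 of 6 were lower, led by Plpp2, 3.07-fold (2.49 to 3.79), and Asah1, 2.28-fold (2.12 to 2.45). Of 19 signalling genes below these receptors 1 was higher, Gna13, 2.07-fold (1.99 to 2.15), and 1 lower, Arrb1, 1.70-fold (1.44 to 2.01).

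In experiment 2, where 2.54% of all genes were higher and 9.01% lower, fewer genes differed in the lists as in the whole table. Of upstream regulators 0 of 15 and of signalling genes 0 of 19 passed 1.5-fold in either direction, with Tcf7 1.43-fold lower (1.38 to 1.48), Tsc22d3 1.39-fold higher (1.36 to 1.42), Arrb1 1.39-fold lower (1.26 to 1.52), Coro1a 1.32-fold higher (1.31 to 1.33) and Foxo1 at 67.7 and 66.5 CPM. Of entry and exit partners 3 of 11 were lower, among them Ccrl2, 2.03-fold (1.97 to 2.09), and 1 was higher, Itga4, 1.81-fold (1.73 to 1.88). Itga4 thus lay in the opposite direction from experiment 1. Of retention genes 4 of 11 were lower, led by P2rx7, a receptor for extracellular ATP, 4.97-fold (4.09 to 6.08), and Rgs2, 1.76-fold (1.72 to 1.81), and 0 were higher. Cd69 was 105 and 80.0 CPM, 1.31-fold lower (1.27 to 1.35). In low-admixture barcodes Cd69 was 146 and 86.0 CPM, 1.70-fold lower (1.64 to 1.76). S1pr2 was 2.01-fold lower (1.82 to 2.21), Klf4 2.09-fold lower (1.99 to 2.19), Klf9 1.74-fold higher (1.55 to 1.95) and Asah1 1.97-fold lower (1.88 to 2.06). Sphk2, a kinase that makes S1P, was 1.49-fold lower (1.38 to 1.61). All 10 macrophage markers were also at least 1.5-fold lower in the combination, as they were with 10 mg/kg in experiment 1, and their part in these values was not tested.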

How the data were processed

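The authors sequenced 10x 5′ version 2 gene expression and T cell receptor libraries, 4 of each. The values used are UMI counts per gene and barcode as deposited by the authors, and per the file headers Cell Ranger 4.0.0 made them in experiment 1 and 6.1.2 in experiment 2. The submitters' processing notes name GRCm38 as the build. Contig tables, also deposited, gave beta chains and their UMI counts.

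Barcodes were filtered as the text states, UMIs were summed per group and scaled to CPM, and genes with at least 5 CPM in 1 of 2 libraries were compared, with Python 3.11.15, numpy 2.4.6, scipy 1.17.1 and pandas 2.3.3. List medians use log2(CPM + 1), which understates ratios of low genes, and folds use plain CPM. No doublet caller was run, and barcodes with more than 1 beta chain were left out as an alternative. The calculation of ratios and intervals was tested on simulated data. TMM factors came from edgeR 4.0.16 in R 4.3.3.

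The 5 genes, the 18 gene lists and the comparisons were chosen with earlier results of these data known. Named genes were the 5, 6 fixed reference genes (among them Cd8a, Cd8b1, Pdcd1, Cd69 and Foxo1; 1 is not reported here), the 2 measured genes of each pathway list with the largest ratio in each experiment, and the 3 most like each of the 5. Low-admixture values in classes of cells were added after seeing the data. Other alternatives changed the cell filter, gate, scaling, weighting of cells or clonotypes, depth, clonotype definition and size limits.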

Additional observations from a re-analysis of the deposited data

Results flagged for a closer look

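Ccr7 in experiment 1 went one way in clonotypes of 1 cell and the other way in clonotypes of 5 or more cells. The log2 ratio of rhIL-7-hyFc at 10 mg/kg over buffer was 0.67 in the former and -1.31 in the latter, each from 1 library a group. The difference was not tested. In barcodes with under 3 UMIs of other cell types the same log2 ratios were 0.51 and -1.02.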

How the results depend on the processing

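Of 620 values recomputed under another setting, 319 moved by less than their counting interval or stayed within 1.5 times their count, 298 moved by more and 3 that were past 1.5-fold changed direction. The 620 are log2 ratios or counts of the 5 genes and, for the comparisons of treatments, shares of all genes past the limit. The values printed below are those of the 5 genes. The cause of each move was not tested, and each setting is a single fit with 1 library a group. No paired analysis was possible because each group has 1 library. A further 21 ratios under 1.5-fold changed sign, 6 of them S1pr1 of experiment 2 over all cells. The 3 past 1.5-fold were in experiment 1: Klf2 was -0.50 with each clonotype counted once and -0.44 with strata weighted as in the buffer library, and Ccr7 was -0.20 with the latter.

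In experiment 1 the median of the 5 genes, 0.85, became 1.13 with a stricter gate, 1.496 without barcodes with 3 or more UMIs of other cell types, 1.53 without barcodes with a UMI of a CCR7-positive dendritic cell marker, 1.12 with TMM scaling, 0.98 as a mean over cells, 0.51 with each clonotype once, 0.17 with weighted strata, 0.49 without cycling cells, 0.82 without barcodes with more than 1 beta chain and 0.89 in thinned cells. The 4 genes at least 1.5-fold higher became 1 with each clonotype once, 0 with weighted strata, 2 without cycling cells and 2 at a limit of 2-fold. In experiment 2 the median, -0.17, became -0.56 without barcodes with 3 or more UMIs of other cell types, -0.24 with TMM scaling, -0.39 as a mean over cells, -0.47 with each clonotype once, -0.32 with weighted strata, -0.23 without cycling cells, -0.14 without barcodes with more than 1 beta chain and -0.35 in thinned cells. The 1 gene higher there became 0 in low-admixture barcodes, as a mean over cells, with each clonotype once, in thinned cells and at 2-fold, and the 0 lower became 2 in low-admixture barcodes and 1 with each clonotype once.

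The median by Pdcd1 state, -2.03, -1.98, -1.62 and -1.07 in the 4 libraries, became -2.41, -2.49 and -1.12 in the buffer, 10 mg/kg and combination libraries with at least 2 Pdcd1 UMIs required. With Pdcd1 read from thinned cells it was -1.74, -2.67, -1.22 and -1.01, and in low-admixture barcodes -2.47, -2.27, -2.22 and -1.29. The median by clone size in low-admixture barcodes was -2.83, -4.04, -2.88 and -1.87, against -2.61, -3.73, -1.98 and -1.41. With 10 mg/kg it was -4.14 with Cell Ranger's clonotypes, -3.35 with equal cell numbers and -3.31 with expansion counted from 3 cells, which gave -1.34 in the combination. Low counts limit S1pr1 and Klf3 in expanded clonotypes most.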
